A study of Mus musculus with 15 samples.

Results

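The 41 nuclear receptor genes described here are transcription factors of 1 protein family, taken by symbol from a fixed list, and all 41 were found among the 43629 Ensembl genes of the count table. RNA was sequenced from organoids, 3-dimensional cultures grown from crypts of the proximal part of mouse small intestine, of mixed C57B6/129 strain. WT comprised 5 libraries in ENR medium, which holds EGF, Noggin and R-spondin. Of these, 4 came from Apc flox/flox lines (numbered 1, 2, 5 and 6), in which Apc is flanked by loxP sites but intact, and 1 (naive) from a culture never given doxycycline. Apc comprised 4 libraries labelled delta/delta for Apc, the negative regulator of Wnt signalling, from lines of the same 4 numbers. P-Rspo3 comprised 4 libraries (15d, 4d, M and F) carrying the Ptprk-Rspo3 inversion, which fuses the R-spondin gene Rspo3 to Ptprk. Both mutant groups grew in EN medium, without R-spondin, so that genotype and medium cannot be told apart in a comparison with WT, whereas Apc and P-Rspo3 share the medium. P-Rspo3 cultures were polyclonal populations made with doxycycline-induced Cas9 and selected by removing R-spondin, and came from other lines than the floxed ones. The labels do not say whether the libraries of a group came from separate animals, and p-values then measure only the spread between these libraries.

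Nuclear receptors bind DNA, mostly as dimers, and many change their activity when a small lipid-soluble ligand binds: thyroid hormone, retinoic acid, vitamin D, steroids, bile acids, oxysterols, fatty acids or foreign compounds. Retinoid X receptors are the common dimer partner of the vitamin D, thyroid hormone, retinoic acid, PPAR, liver X, farnesoid X and xenobiotic receptors. In the small intestine the family is known for control of calcium and lipid uptake, bile acid handling, drug metabolism and the daily clock. Other members have no known natural ligand, bind as monomers, or act as repressors.

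The promoters of 4 members are shown. Rarb and Nr2f2 were taken for the motifs they hold and Nr1i3 for the steepest fall in Apc. Vdr was taken for the highest mean level of the 41 in WT. They are the 250 bases before a RefSeq transcript start on GRCm38.p6, written 5′ to 3′ on the strand of the gene, with motif matches in capitals. RefSeq start windows of 300 bases, which also take in the first transcribed bases, were found for 39 of the 41 members (59 windows) and for 27025 genes in all (32851 windows). The Rarb window, chr14:16575477-16575726 on the minus strand, holds a retinoic acid response element, searched as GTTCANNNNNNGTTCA on both strands.
Rarb: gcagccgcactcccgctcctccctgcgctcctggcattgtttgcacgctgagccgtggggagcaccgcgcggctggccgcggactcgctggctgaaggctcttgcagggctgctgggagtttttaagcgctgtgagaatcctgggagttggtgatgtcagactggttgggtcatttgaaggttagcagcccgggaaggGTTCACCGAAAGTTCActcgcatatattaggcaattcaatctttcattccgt
The Nr2f2 window, chr7:70366747-70366996 on the minus strand, holds the motif CTTTGAT, bound by the TCF/LEF factors of Wnt signalling.
Nr2f2: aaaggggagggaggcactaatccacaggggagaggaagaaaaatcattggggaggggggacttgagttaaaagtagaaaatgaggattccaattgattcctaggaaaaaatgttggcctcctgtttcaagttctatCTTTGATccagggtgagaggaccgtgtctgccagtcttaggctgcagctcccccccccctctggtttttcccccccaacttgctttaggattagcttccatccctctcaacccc
The Nr1i3 window, chr1:171213720-171213969 on the plus strand, holds CACGTG, the E-box of clock and other helix-loop-helix factors.
Nr1i3: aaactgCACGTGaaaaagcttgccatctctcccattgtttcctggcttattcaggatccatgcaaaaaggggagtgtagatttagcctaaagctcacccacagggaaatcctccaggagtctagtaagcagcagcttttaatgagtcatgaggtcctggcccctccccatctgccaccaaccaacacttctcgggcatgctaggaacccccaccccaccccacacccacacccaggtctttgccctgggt
The Vdr window, chr15:97908297-97908546 on the minus strand, holds none of the motifs searched.
Vdr: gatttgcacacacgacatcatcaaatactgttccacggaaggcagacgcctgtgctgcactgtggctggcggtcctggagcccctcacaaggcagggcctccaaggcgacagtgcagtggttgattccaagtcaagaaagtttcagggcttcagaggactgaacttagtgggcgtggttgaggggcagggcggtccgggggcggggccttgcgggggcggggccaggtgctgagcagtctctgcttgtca
The retinoic acid response element, in the form searched, lay in 1 of the 59 member windows, that of Rarb, and in 0.0761% of all windows. The letters searched are those of the Rarb element itself, so this match was fixed in advance and its rarity is no result about Rarb. Other forms of the element were not searched. CTTTGAT lay in the Nr2f2 window alone (1.69% of member windows) and in 3.73% of all windows. The receptor core motif AGGTCA lay in 11 member windows of 10 genes (18.6% of member windows) and in 16.3% of all windows, and CACGTG in 6 member windows (10.2%) and 7.15% of all windows. A match is a run of letters in the window, and binding was not measured.

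Libraries held 28902729 to 35528495 counted reads. Rspo3 had 539 to 1079 counts in P-Rspo3 libraries, 0 to 1 in WT and 7 to 57 in Apc. The count of Apc itself was higher in Apc libraries (9265 to 10953) than in WT (4046 to 6810), and a total over the gene does not check the deleted part. The 8 epithelial markers, Epcam among them, had a summed FPKM of 2010 to 2447 in WT, 1900 to 2376 in Apc and 1985 to 2424 in P-Rspo3. The sum hides single genes: against WT, Cdx1 (log2 fold change -4.18) and Vil1 (-1.26) fell in Apc, and Krt18 (1.11) rose. All 8 enterocyte markers fell in Apc, with log2 fold changes of -5.60 to -12.5, and their summed FPKM was 3219 to 9310 in WT, 7.30 to 15.1 in Apc and 2178 to 4979 in P-Rspo3. All 5 goblet cell markers, 4 of 5 enteroendocrine markers, 2 of 3 tuft cell markers and 4 of 5 Paneth markers also fell. The other Paneth marker, Mmp7, rose (1.74, adjusted p = 0.00018), and the stem cell markers Lgr5, Ascl2 and Smoc2 rose while Olfm4 fell. In bulk RNA, fewer cells of a type and less RNA per cell cannot be told apart, and the part of these cell type shifts in the receptor values below was not tested. Of fibroblast, immune, endothelial, glial and muscle markers, 10 of 20 had at most 3 counts in every library, and the summed FPKM of each list was at most 3.20 in any library. Of these, Cdh5 (0 counts in WT, 217 to 372 in Apc) and Pdgfra rose in Apc, and Csf1r, Itgam and Pecam1 fell.

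Tests used edgeR's quasi-likelihood fit of the counts, with Benjamini-Hochberg adjustment over all genes tested, and a gene is said to have been called, to have risen or to have fallen, where the adjusted p was under 0.05 and the log2 fold change beyond 1 in size. Of the 41 receptors, 33 had enough signal to be tested between Apc and WT (FPKM, fragments per kilobase of transcript scaled to library size, reaching 0.1 in 4 or more libraries). Of these, 16 fell and 4 rose. The filter admitted 28 of the 33 on either group alone. Rarb and Rora reached it in fewer than 4 WT libraries and were admitted through Apc, and Nr1i3, Nr2e3 and Nr0b2 through WT, so that each could enter the test only by the group in which it was high. Among all 16749 genes tested 14.1% fell and 12.2% rose. The median log2 fold change was -0.97 over the 33 receptors and 0.00058 over all genes. In 18 of the tested receptors every Apc library lay below every WT library, and in 5 above, by normalised CPM, the depth-scaled read count; of the 8 not tested, Esr1 and Pgr also lay above. Over all genes tested these shares were 24.7% and 27.2%. Between P-Rspo3 and WT no receptor was called, higher or lower, of 31 tested, against 0.00625% and 0% of all genes. Summed over all 41 members, FPKM was 624 ± 17.2 (SD, n = 5) in WT, 355 ± 3.36 (SD, n = 4) in Apc and 607 ± 25.3 (SD, n = 4) in P-Rspo3. FPKM is used for levels and CPM for changes, because on the log2(FPKM + 1) scale the median of all genes was 0.17 higher in Apc than in WT.

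**Figure D1:**
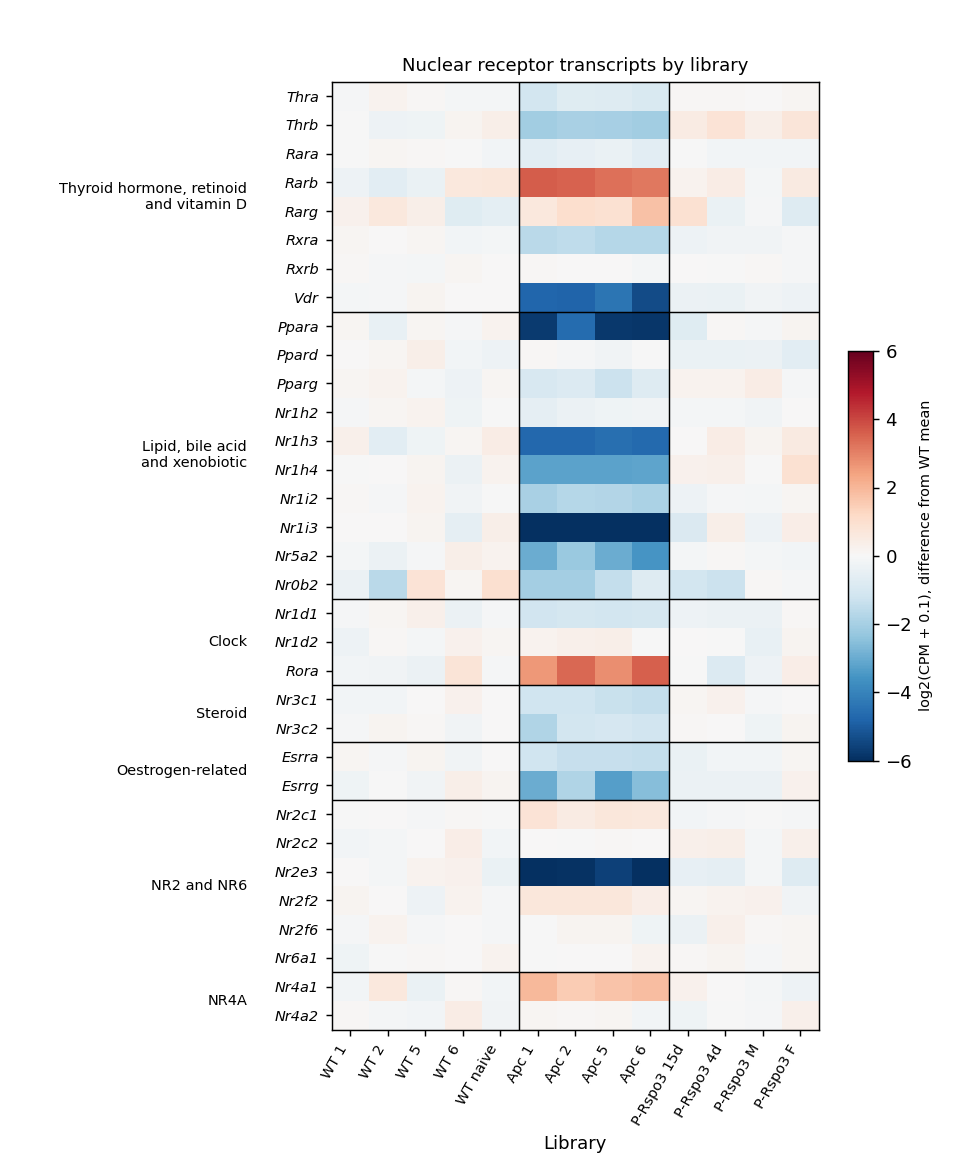
Heat map of normalised expression of the 33 tested receptors (rows, by role) in the 13 grouped libraries (columns). Colour is log2(CPM + 0.1) minus the WT mean of the gene, with the scale ending at 6 in each direction; P-Rspo3 libraries span -1.29 to 0.94, and Apc libraries -7.08 to 3.64.

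Positions are those of the whole gene on GRCm38, from the GENCODE annotation, and counts were summed over each gene. Vdr, the vitamin D receptor (chr15:97854425-97910630 on the minus strand), was the most abundant receptor in WT and fell to a low level in Apc. Its FPKM was 78.1, 76.6, 89.5, 84.0 and 83.2 in WT 1, 2, 5, 6 and naive, and 3.61, 3.28, 4.65 and 2.397 in Apc 1, 2, 5 and 6. P-Rspo3 15d, 4d, M and F had 70.1, 64.3, 73.0 and 64.0, just under the WT range. The fall in Apc was 28.0-fold (log2 fold change -4.81 ± 0.19 SE, adjusted p = 2e-08), and Vdr went from 12.2 to 14.1% of the summed receptor FPKM in WT to 0.666 to 1.32% in Apc. Rxra, a dimer partner of Vdr, had FPKM of 25.9 to 31.5 in WT, 9.94 to 11.1 in Apc and 24.0 to 26.0 in P-Rspo3. It fell 3.16-fold in Apc (-1.66 ± 0.08 SE, adjusted p = 5.5e-08). Rxrb, the other retinoid X receptor expressed, did not pass the adjusted p (-0.02, 95% interval -0.17 to 0.13). Rxra exceeded Rxrb in every WT library, at a ratio of 1.09 to 1.66, and lay below it in every Apc library, at 0.381 to 0.442. Rxrg had 0 counts in every grouped library.

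Thrb and Thra encode the thyroid hormone receptors. Thrb had FPKM of 5.72, 4.60, 4.53, 6.60 and 7.16 in WT 1, 2, 5, 6 and naive and of 1.56, 1.80, 1.74 and 1.65 in Apc 1, 2, 5 and 6. P-Rspo3 15d, 4d, M and F had 8.29, 10.2, 7.26 and 8.76, all above the WT libraries on this scale, though not by CPM. Thrb fell 4.24-fold in Apc (-2.08 ± 0.14 SE, adjusted p = 5.9e-07). Thra, the more abundant, passed the adjusted p in Apc but not the fold limit (-0.89, adjusted p = 1.9e-05). The ratio of Thra to Thrb was 6.75 to 13.2 in WT and 19.8 to 22.2 in Apc.

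Of the 3 retinoic acid receptors, 2 rose in Apc. Rarb (chr14:16430839-16819156 on the minus strand), whose promoter with its response element is printed above, had 3 to 14 counts in WT, 115 to 155 in Apc and 6 to 10 in P-Rspo3. Its FPKM was 1.14, 1.10, 0.953 and 0.784 in Apc 1, 2, 5 and 6, and at most 0.0930 in any WT or P-Rspo3 library. Rarb was called 13.0-fold higher (3.70 ± 0.37 SE, adjusted p = 8.7e-06) from this very low level, having been admitted to the test through the Apc libraries. With no filter its value was 3.70 (adjusted p = 2.1e-06). On the log2(FPKM + 1) scale, which understates changes of low genes, limma gave 0.92, within the fold limit. Rarb overlaps Top2b on the opposite strand, and whether the counting used strand is not given in the sources used here; Top2b had a log2 fold change of 0.45. Rarg had FPKM of 2.48, 3.04, 2.45, 1.31 and 1.28 in WT 1, 2, 5, 6 and naive and of 4.48, 4.89, 4.99 and 9.88 in Apc 1, 2, 5 and 6, with Apc 6 high. Its rise was 2.06-fold (1.04 ± 0.32 SE, adjusted p = 0.0153), and it was not called without Apc 6 (0.76, adjusted p = 0.057), without WT 6 (0.88), without WT naive (0.91) or with the line number as a block (0.89, adjusted p = 0.081). The CPM of Apc and WT overlapped for Rarg. Rara, the most abundant of the 3 in WT, passed the adjusted p within the fold limit (-0.55, adjusted p = 0.00024). Rara made up 74.6 to 86.2% of the retinoic acid receptor FPKM in WT and 38.1 to 55.7% in Apc.

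**Figure D2:**
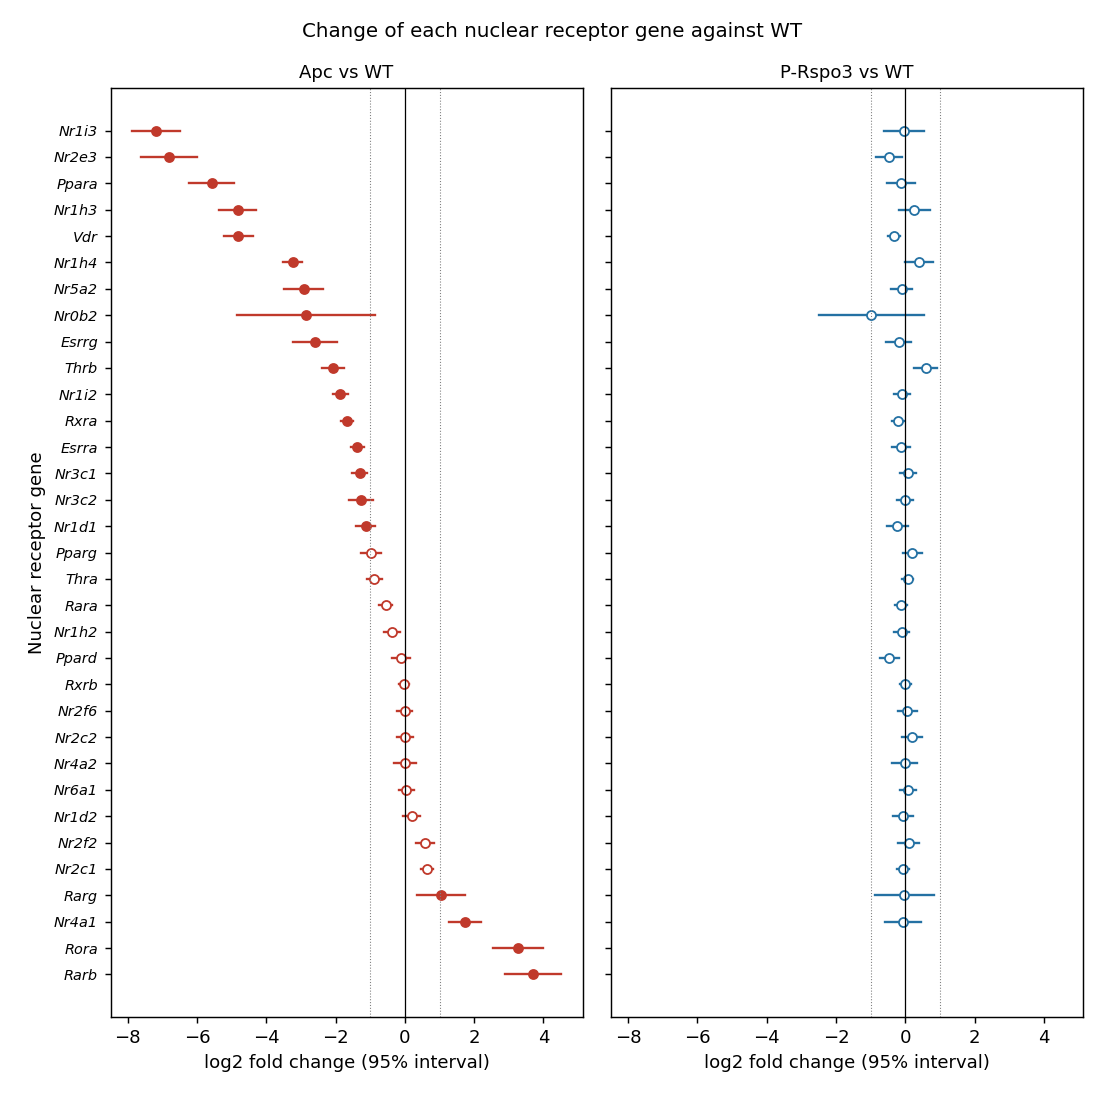
Log2 fold change (horizontal axis) with its 95% interval for each tested receptor (vertical axis), Apc against WT on the left and P-Rspo3 against WT on the right; filled points are called, and dotted lines mark the fold limit. The Apc values run from -7.18 for Nr1i3 to 3.70 for Rarb, and all P-Rspo3 values lie between -0.99 and 0.59; Rarb and Rora were not tested in P-Rspo3.

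The receptors of bile acids, foreign compounds and lipids fell in 7 of 10 cases in Apc and none rose, beside 14.1% and 12.2% of all genes. One of the 7, Nr0b2, had few counts and overlapping libraries. Nr1i3, the constitutive androstane receptor, which senses drugs (chr1:171213970-171220701 on the plus strand), had FPKM of 51.0, 49.0, 47.6, 30.4 and 61.3 in WT 1, 2, 5, 6 and naive. Apc 1, 2, 5 and 6 had 0.185, 0.229, 0.0902 and 0.354, from 3 to 12 counts. P-Rspo3 15d, 4d, M and F had 27.7, 57.3, 37.0 and 59.7, a spread like that of WT. Its fall in Apc was the steepest of the family, 145-fold (-7.18 ± 0.31 SE, adjusted p = 3.4e-08). Nr1i3 overlaps Tomm40l on the opposite strand, which had a log2 fold change of -0.50. Nr1i2, the pregnane X receptor, a related drug sensor, had FPKM of 17.8 to 21.9 in WT and 6.04 to 7.25 in Apc. It fell 3.63-fold (-1.86 ± 0.10 SE, adjusted p = 1.2e-07). By FPKM, Nr1i2 was less than Nr1i3 in every WT library (ratio 0.323 to 0.585) and more in every Apc library (18.1 to 80.3). By CPM, which is not scaled to transcript length, Nr1i2 was the higher in WT too (69.4 to 93.0 against 16.6 to 30.6).

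Nr1h4, the farnesoid X receptor for bile acids (chr10:89454234-89533585 on the minus strand), had FPKM of 15.7, 15.6, 17.1, 12.6 and 17.8 in WT 1, 2, 5, 6 and naive. Apc 1, 2, 5 and 6 had 1.80, 1.85, 1.86 and 1.94, a narrow range far below WT. It fell 9.46-fold (-3.24 ± 0.13 SE, adjusted p = 1.9e-08). Nr0b2, the small heterodimer partner that bile acid signalling induces in liver, was barely expressed, with 1 to 20 counts in WT and 0 to 6 in Apc. It was called lower (-2.85 ± 0.90 SE, adjusted p = 0.0179) although the libraries overlapped. Nr5a2, also called LRH-1, a factor of crypt renewal and bile acid synthesis, had FPKM of 6.41, 5.26, 6.41, 9.21 and 8.14 in WT 1, 2, 5, 6 and naive and of 0.9995, 1.83, 1.11 and 0.678 in Apc 1, 2, 5 and 6. It fell 7.59-fold (-2.92 ± 0.26 SE, adjusted p = 3.6e-06).

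Nr1h3 and Nr1h2 are the liver X receptors alpha and beta, which sense oxysterols and control cholesterol export. Nr1h3 (chr2:91184061-91202834 on the minus strand) had FPKM of 20.0, 9.94, 11.8, 17.6 and 18.5 in WT 1, 2, 5, 6 and naive and of 0.620, 0.623, 0.758 and 0.6002 in Apc 1, 2, 5 and 6. It fell 28.4-fold (-4.83 ± 0.24 SE, adjusted p = 7.9e-08). Nr1h2 passed the adjusted p but stayed well within the fold limit (-0.36, adjusted p = 0.0108), at 33.7 to 55.8 FPKM in WT and 35.7 to 49.7 in Apc. Nr1h2 was 65.7 to 83.0% of the liver X receptor FPKM in WT and 98.3 to 98.8% in Apc.

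The 3 PPARs, receptors of fatty acids, differed among themselves. Ppara, which drives fatty acid oxidation (chr15:85734983-85802819 on the plus strand), had FPKM of 16.8, 15.2, 17.0, 15.3 and 17.4 in WT 1, 2, 5, 6 and naive, and of 0.676, 0.500, 0.618 and 0.394 in Apc 1, 2, 5 and 6. It fell 47.8-fold (-5.58 ± 0.29 SE, adjusted p = 9.9e-08). Pparg, known for its role in fat cells and in colon epithelium, had 17.4 to 23.9 in WT and 10.3 to 14.95 in Apc and passed the adjusted p just within the fold limit (-0.97, adjusted p = 8.6e-05). It was called in 5 of the alternatives, at log2 fold changes of -1.002 to -1.053. Ppard did not pass (-0.11, 95% interval -0.37 to 0.16). Ppard made up 30.4 to 41.3% of PPAR FPKM in WT and 62.8 to 67.3% in Apc, where Ppara was 0.931 to 1.85%.

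**Figure D3:**
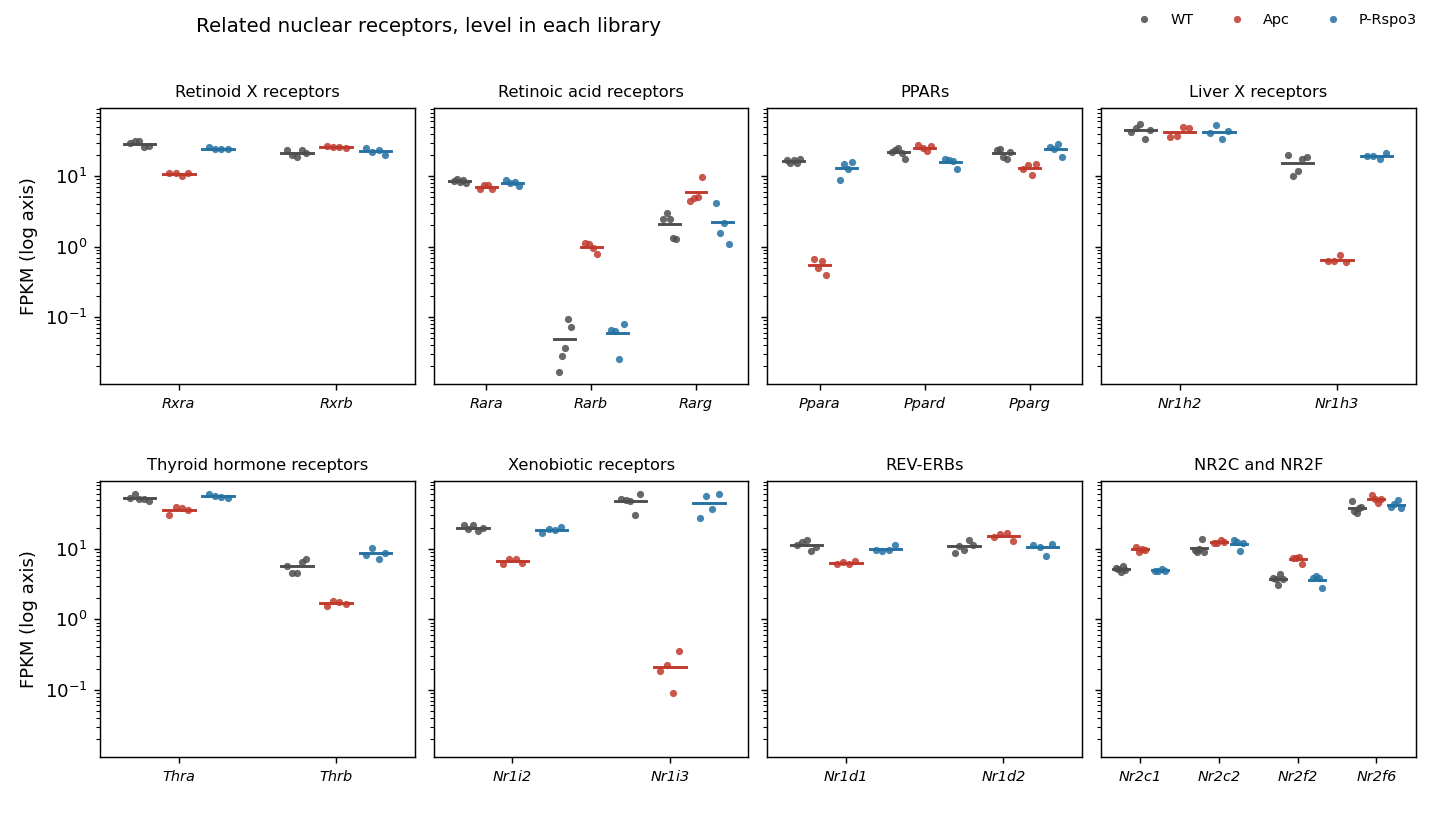
FPKM on a log axis (vertical) of related receptors in each library, by gene (horizontal) and group (colour), with the group mean as a bar; values of 0 cannot be drawn and none occurs here. In the pairs Nr1h2 and Nr1h3, Nr1i2 and Nr1i3, and Ppard and Ppara, the second gene fell by 28.4-fold or more in Apc; of the first genes Nr1i2 fell 3.63-fold, and Nr1h2 and Ppard were not called.

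Of the clock receptors, Nr1d1 (REV-ERB alpha, a repressor of the clock gene Arntl) had FPKM of 9.26 to 13.5 in WT and 6.12 to 6.68 in Apc. It fell 2.19-fold (-1.13 ± 0.12 SE, adjusted p = 1.7e-05). With limma on log2(FPKM + 1) it stayed within the fold limit (-0.75). It overlaps Thra on the opposite strand. Nr1d2, its relative, did not pass (0.19, 95% interval -0.06 to 0.45). Rora, an activator that binds the same elements (chr9:68653786-69388246 on the plus strand), had 11 to 35 counts in WT, 154 to 321 in Apc and 8 to 21 in P-Rspo3. Its FPKM was 0.419, 0.794, 0.528 and 0.906 in Apc 1, 2, 5 and 6 and at most 0.126 in WT, where WT 6 was the highest. Rora was called 9.62-fold higher (3.27 ± 0.32 SE, adjusted p = 9e-06), having been admitted to the test through the Apc libraries. With no filter its value was 3.26 (adjusted p = 1.8e-06), and limma on log2(FPKM + 1) gave 0.63. Rorb had 0 to 3 counts in every grouped library and was not tested.

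Nr3c1, the glucocorticoid receptor, was the main steroid receptor of these organoids. It had FPKM of 27.03, 26.2, 28.7, 37.1 and 29.3 in WT 1, 2, 5, 6 and naive and of 15.3, 16.3, 14.7 and 13.3 in Apc 1, 2, 5 and 6, and fell 2.48-fold (-1.31 ± 0.10 SE, adjusted p = 1e-06). Nr3c2, the mineralocorticoid receptor of salt balance, had 3.997 to 4.41 in WT and 1.54 to 2.56 in Apc and fell 2.39-fold (-1.26 ± 0.16 SE, adjusted p = 4.9e-05). On the log2(FPKM + 1) scale both were within the fold limit (-0.94 and -0.69, limma). The ratio of Nr3c1 to Nr3c2 was 5.95 to 9.28 in WT and 5.61 to 9.94 in Apc. The oestrogen and progesterone receptors were below the filter. Pgr had 0 to 1 counts in WT and 22 to 55 in Apc, at least 8.38-fold higher against a floor of 3 counts per library. Esr1 had 0 to 4 counts in WT, 17 to 69 in Apc and 0 to 1 in P-Rspo3. Esr2 had 0 to 4 counts in WT, 0 to 1 in Apc and 0 to 2 in P-Rspo3. Without the filter both Esr1 (log2 fold change 4.45, adjusted p = 8.7e-05) and Pgr (adjusted p = 4.4e-06) were called.

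The oestrogen-related receptors bind DNA without oestrogen and drive mitochondrial genes. Esrra, next to Vdr by mean FPKM in WT (chr19:6910977-6921813 on the minus strand), had FPKM of 82.8, 68.4, 80.7, 69.4 and 75.1 in WT 1, 2, 5, 6 and naive and of 41.2, 34.6, 33.9 and 35.6 in Apc 1, 2, 5 and 6. It fell 2.59-fold (-1.37 ± 0.09 SE, adjusted p = 3.9e-07). Esrrg had 4.40 to 6.86 in WT and 0.628 to 1.81 in Apc and fell 6.07-fold (-2.60 ± 0.29 SE, adjusted p = 2e-05). Esrrb had at most 1 count in any grouped library.

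Of 6 tested NR2 and NR6 receptors, mostly orphans, only Nr2e3 was called. Nr2e3, known from rod photoreceptors (chr9:59942771-59960659 on the minus strand), had FPKM of 7.05, 6.25, 8.12, 11.1 and 5.11 in WT 1, 2, 5, 6 and naive. Apc 1, 2, 5 and 6 had 0.122, 0.0669, 0.132 and 0.0246, from 1 to 9 counts. P-Rspo3 15d, 4d, M and F had 6.70, 4.85, 7.26 and 4.22, overlapping WT. Nr2e3 fell 113-fold in Apc (-6.82 ± 0.37 SE, adjusted p = 1.3e-07). Nr2c1, a repressor also called TR2, had 4.69 to 5.67 in WT and 8.97 to 10.7 in Apc, a change past the adjusted p within the fold limit (0.65, adjusted p = 3.5e-05). Nr2f2, or COUP-TFII, whose promoter with the CTTTGAT motif is printed above, had 3.05 to 4.42 in WT and 6.03 to 7.61 in Apc (0.59, adjusted p = 0.0012). Nr2c2 (-0.00), Nr2f6 (-0.01) and Nr6a1 (0.04) had log2 fold changes near 0, with 95% intervals of -0.24 to 0.24, -0.22 to 0.21 and -0.18 to 0.26. On the opposite strand Nr2f6 overlaps Ocel1 (-0.44) over 5239 bases, and Nr2c2 overlaps Mrps25 (0.01) over 4770, so the levels of both are uncertain. Nr2f1 had 0 to 7 counts in every grouped library and was not tested.

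The NR4A receptors are immediate early genes, induced by growth signals without a ligand. Nr4a1 (chr15:101254269-101274795 on the plus strand) had FPKM of 0.797, 1.31, 0.608, 0.956 and 0.773 in WT 1, 2, 5, 6 and naive and of 4.18, 3.10, 3.50 and 3.88 in Apc 1, 2, 5 and 6. The groups did not overlap, and Nr4a1 rose 3.36-fold (1.75 ± 0.21 SE, adjusted p = 3.4e-05). Nr4a2 did not pass (-0.00, 95% interval -0.32 to 0.32). Nr4a3 had 1 to 20 counts in any grouped library and was not tested.

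In WT, mean FPKM ran from Vdr (82.3 ± 5.16 SD, n = 5) through Esrra, Thra, Nr1i3, Nr1h2, Nr2f6, Nr3c1 and Rxra (29.0 ± 2.62 SD, n = 5). Among these, only Esrra and Thra, and Rxra and the next gene, Ppard, were neighbours whose libraries did not overlap. In P-Rspo3 the same 8 genes led, with Esrra (70.9 ± 6.94 SD, n = 4) and Vdr (67.9 ± 4.43 SD, n = 4) overlapping at the top. In Apc the order was Nr2f6 (51.6 ± 5.46 SD, n = 4), Nr1h2, Esrra, Thra, Rxrb and Ppard. Thra and Rxrb, and Ppard and the next gene, were the neighbours among these whose libraries did not overlap, and Vdr and Nr1i3 were no longer among the first 20. A mean FPKM of at least 10 was reached by 18 members in WT, 11 in Apc and 18 in P-Rspo3. Nr2f6 overlaps Ocel1 over 5239 bases and Nr1i3 overlaps Tomm40l over 4691, so the places of both in the orders above are uncertain.

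Between P-Rspo3 and WT, the 31 tested receptors had log2 fold changes of -0.99 (Nr0b2) to 0.59 (Thrb), with a median of -0.06. None passed the adjusted p with edgeR. An unadjusted p under 0.05 was reached by 6 of 31 receptors, where 13.5% of all genes reached it: Thrb (0.59), Nr1h4 (0.41), Rxra (-0.21), Vdr (-0.31), Ppard (-0.46) and Nr2e3 (-0.48). In Ppard and Vdr every P-Rspo3 library lay below every WT library by CPM (364 to 409 against 441 to 527 for Vdr, and 50.2 to 60.8 against 63.8 to 99.2 for Ppard), where 2.55% of all genes did so; no receptor lay above WT in this way, and 2.33% of all genes did. Their adjusted p was 0.14 for Vdr and 0.155 for Ppard. By FPKM the groups overlapped for Ppard (12.65 to 17.57 in P-Rspo3 and 17.29 to 25.05 in WT), though not for Vdr. DESeq2's Wald test put Vdr, Ppard and Thrb under an adjusted p of 0.05, with 0.00553 for Vdr, all within the fold limit. The number of called genes in this comparison rested on WT naive: 166 rose and 100 fell without it, against 1 and 0 with it. No receptor was among them, though Thrb (0.70, adjusted p = 0.0314) and Ppard (-0.53, adjusted p = 0.0428) then passed the adjusted p. The 95% intervals of 30 of the 31 receptors lay within 1 of 0 on the log2 scale, and that of Nr0b2 did not (-2.50 to 0.53). These intervals do not allow for the type of line, which only WT naive among WT libraries shares with P-Rspo3.

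Apc and P-Rspo3 share the EN medium, and this comparison shares the Apc libraries with that against WT. Of 32 receptors tested, 15 fell and 4 rose in Apc against P-Rspo3, where 13.3% of all genes fell and 13.4% rose. Nr1i3 (-7.13 ± 0.43 SE, adjusted p = 1.7e-06), Nr2e3 (-6.32 ± 0.41 SE), Ppara (-5.44 ± 0.35 SE), Nr1h3 (-5.08 ± 0.16 SE) and Vdr (-4.48 ± 0.20 SE, adjusted p = 3.4e-07) were again the lowest. Rora (3.50 ± 0.36 SE), Rarb (3.50 ± 0.26 SE), Nr4a1 (1.82 ± 0.17 SE) and Rarg (1.08 ± 0.38 SE) were the 4 that rose. Rora and Rarb were again admitted to the test through Apc, with no P-Rspo3 library at the FPKM limit, and Nr1i3 and Nr2e3 through P-Rspo3. With no filter Rora had 3.50 and Rarb 3.50 as well. Rarg was not called without any 1 of Apc 2, 5 or 6 or P-Rspo3 4d, F or M, at log2 fold changes of 0.80 to 1.16. Pparg was called here (-1.16, adjusted p = 8.8e-05; -0.85 with limma on log2(FPKM + 1), where Esrra had -0.95), and Nr1d1 (-0.88) passed the adjusted p within the fold limit. Nr0b2, called against WT, was not tested. Ppard was 0.37 higher in Apc than in P-Rspo3 (adjusted p = 0.0038), within the fold limit.

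Genes related to these receptors were taken from 13 lists of coregulators, target and clock genes and other family members, and each list is described by its counts. Of 79 listed genes tested that are not members, 36 fell and 6 rose in Apc against WT, with a median of -0.82, beside 14.1% and 12.2% of all genes. None of 77 was called in P-Rspo3 against WT with edgeR. Of the listed genes, Stra6 and Abcg1 passed the filter only through Apc, and Slc51a, Slc51b, Fabp6, Cd36, Creb3l3 and Cyp3a11 only through WT. Among Vdr targets, 3 of 4 tested fell: Cldn2, a channel-forming tight junction protein (-1.63), S100g, the calcium carrier of enterocytes (-6.15), and Slc30a10, a manganese exporter (-4.97). Trpv6, the calcium channel of the same list, was below the filter, and its counts were higher in Apc: 0 to 4 in WT, 11 to 57 in Apc and 0 to 3 in P-Rspo3, at least 6.62-fold higher than in P-Rspo3. Cyp24a1 had 0 to 3 counts in any grouped library. Of the Nr1h4 targets, 3 of 4 tested fell, namely Slc51a (-8.45), Slc51b and the member Nr0b2. Slc51a and Slc51b form the basolateral bile acid exporter, and Slc51b, with 0 to 1 counts in Apc, was at least 82.7-fold lower. Fgf15, the enterokine that bile acids induce through Nr1h4 in ileum, was below the filter, with 0 to 1 counts in WT, 5 to 26 in Apc and 0 to 9 in P-Rspo3, at least 2.83-fold higher in Apc than in WT. The list's median was -5.65, or -4.61 with Slc51b at this bound. Nr1i2 and Nr1i3 share targets in drug metabolism, of which 6 of 7 fell, among them Cyp3a11 (-9.16), Cyp3a13 (-4.67) and Ces2a (-4.01).

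In Apc against WT, 14.1% of all genes tested fell and 12.2% rose, and each list here stands beside these shares. PPAR targets fell in 9 of 12 and rose in 1. Creb3l3 (-9.12), Ehhadh of peroxisomal oxidation (-3.99) and the fatty acid carrier Fabp1 (-10.5) fell, and Pdk4, an inhibitor of pyruvate use, rose (3.88), with 62 to 862 counts in Apc. Fabp1 is also on the enterocyte list. Liver X receptor targets fell in 3 of 7, the sterol exporters Abcg5 (-3.15) and Abcg8 (-2.79) and the phospholipid enzyme Lpcat3 (-1.09), and rose in 1, Abcg1 (1.72). Retinoic acid targets were mixed: of 4 tested, the member Rarb and Stra6, the retinol transporter, rose, and Dhrs3, which reduces retinaldehyde, fell (-1.77). Stra6 had 0 counts in WT and 58 to 259 in Apc, at least 40.7-fold higher. Of the enzymes that degrade retinoic acid, not tested, Cyp26a1 had 0 to 2 counts, and Cyp26b1 had 2 to 10 in WT, 12 to 43 in Apc and 2 to 3 in P-Rspo3. Glucocorticoid targets fell in 2 of 5, with Tsc22d3 at -2.31, and rose in 1, Fkbp5 (1.03), while Per1 (-0.83) passed the adjusted p within the fold limit. Of the mineralocorticoid list, 1 of 2 tested fell, Sgk1 (-2.44), which the glucocorticoid list also holds. Thyroid hormone targets fell in 2 of 4, Me1 (-2.30) and Dio1 (-1.38). On the Nr5a2 list, Nr0b2 fell, Cyp11a1 rose (1.03) from 4 to 8 counts in WT, and Ccne1 was within the fold limit (0.84). Clock genes fell in 2 of 10, Arntl (-1.24) and Nfil3 (-1.75), and rose in 1, Cry2 (1.35), near the shares of all genes.

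Coregulators, the proteins through which receptors act on chromatin, were tested in all 18 cases, and 3 fell (16.7%, near the 14.1% of all genes): Ncoa1 (-1.15), Ppargc1b (-1.17) and Ppargc1a (-1.88), the partner of Esrra and Ppara in mitochondrial control. None rose, 4 passed the adjusted p within the fold limit upwards and 2 downwards, and the list's median was -0.05. Of 7 nuclear receptors outside the 41, 3 were tested and all fell, among them Hnf4g (-3.59) and Hnf4a (-1.27), which sets the enterocyte programme.

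**Figure D4:**
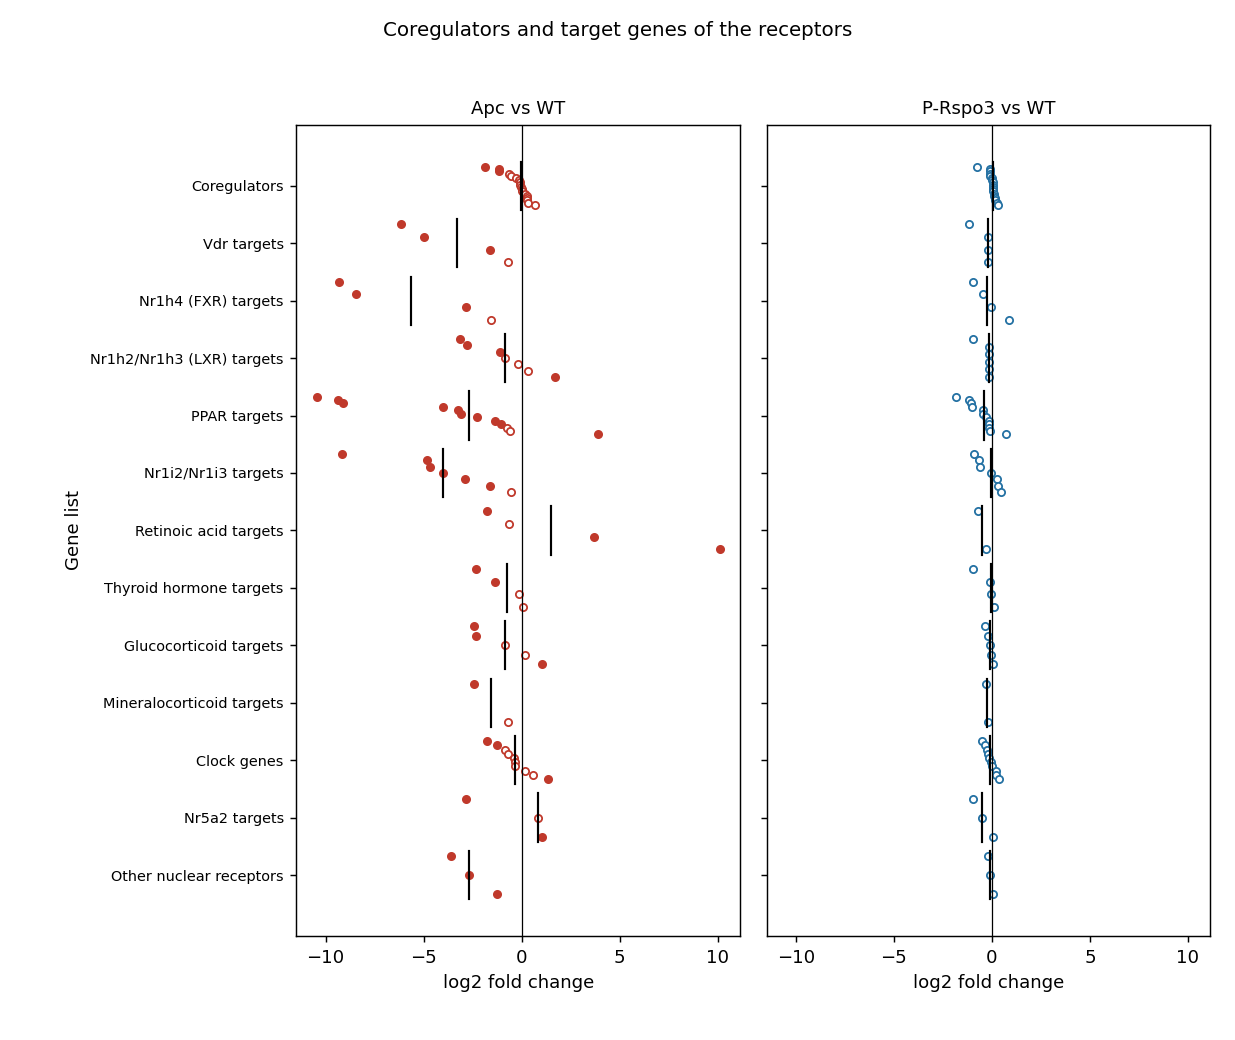
Log2 fold change (horizontal axis) of each tested gene of the 13 lists (vertical axis), Apc against WT on the left and P-Rspo3 against WT on the right; filled points are called, black bars are medians and Nr0b2 and Sgk1 stand in 2 lists each. The called Apc points lie mostly left of 0, and no P-Rspo3 point is filled.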

How the data were processed

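RNA of 15 organoid cultures was measured, and 13 libraries were grouped from the labels. The other 2, titled LIPO and NAIVE_F, entered no group. The title NAIVE_F disagrees with its genotype label, P-Rspo3, and the title LIPO names no genotype. The authors mapped reads to GRCm38 by STAR. They deposited raw counts of HTSeq 0.6.0 for each Ensembl gene, and FPKM from Cufflinks 2.2.1. The annotation release and strand setting are not given in the sources used here, so overlapping genes are uncertain. The members and lists were chosen with earlier results of these data known, so no list's direction is independent evidence. All 41 members are accounted for: called members with values in every library or their range, others by fold change, interval or counts, and up to 3 genes per related list by smallest adjusted p, with others (Pdk4, Abcg1, Ppargc1a, Trpv6, Fgf15, Cyp24a1, Cyp26a1, Cyp26b1 and the non-epithelial markers) named after their values were seen. Some genes of the related lists are counted with their list and not reported here by name.

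The count test was edgeR 4.0.16 under R 4.3.3 (TMM, glmQLFit and glmQLFTest at defaults), in separate fits of each pair of groups, for genes reaching an FPKM of 0.1 in a number of libraries equal to the smaller group. Normalised CPM used TMM factors over all libraries. Errors of log2 fold changes are standard errors from the quasi-likelihood F. Alternatives were DESeq2 1.42.0, limma 3.58.1 on log2(FPKM + 1) and log2(FPKM + 0.1), other filters and factors, 1 fit of all groups, each library left out, the conflicting libraries by genotype, and the line number as a block. Titles give Apc and WT libraries the same numbers, and a shared line was inferred from this. The main test did not use this pairing. Deviations of same-numbered libraries correlated at -0.00882 to 0.197 (median 0.0902, 4 pairs), with a median of -0.0293 for the 12 other pairs. On simulated counts with 200 genes changed 4-fold, 195, 195 and 189 were recovered for Apc against WT, P-Rspo3 against WT and Apc against P-Rspo3, of 16749, 15992 and 16456 genes, with 4 false calls in each. The changed genes were drawn from well-counted genes only, so recovery of genes with few counts, or of smaller changes, was not measured. Totals of 28902729 to 35528495 counts per library make at most 3 counts not detectable, and bounds cover counting error only. Replicate libraries all differed by more than sampling noise (chi-square per gene at least 21.4).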

Additional observations from a re-analysis of the deposited data

Results flagged for a closer look

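In 99 receptor and group combinations, the highest or lowest library was compared with the rest by its gap over the group's range, at Dixon's 95% critical value, and 9 stood apart, where chance gives about 1 in 20. In P-Rspo3, replicate F was low for Ppard (normalised CPM 50.17, others 59.1 to 60.8) and high for Nr1d1 (35.07, others 25.8 to 26.5) and Esrrg (36.76, others 24.3 to 24.6). Replicate 15d was high for Rara (32.86, others 29.9 to 30.3) and replicate M low for Nr2c2 (47.0, others 61.8 to 63.5). In WT, replicate 6 was high for Nr2c2 (66.7, others 45.7 to 50.7) and for Rora (1.034, others 0.414 to 0.531). In Apc, replicate 2 was high for Ppara (1.913, others 0.773 to 0.819) and replicate 6 low for Nr2f2 (19.26, others 23.5 to 23.9). None of the flagged WT and Apc libraries decided a call of Apc against WT for its gene. The flagged P-Rspo3 libraries are not part of that fit. The library titled LIPO, which entered no group, had 23 counts of Esrrb, where grouped libraries had 0 to 1.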

How the results depend on the processing

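Of 20 receptors called between Apc and WT, 13 were called under every alternative, and no value of a called receptor reversed in 397 gene and alternative combinations. The exceptions were Rarb, Rarg, Rora, Nr0b2, Nr1d1, Nr3c1 and Nr3c2. Between Apc and P-Rspo3 13 of 19 were called throughout, except Rarb, Rarg, Rora, Pparg, Esrra and Nr3c2. Receptors called higher in Apc against WT were 2 with an FPKM filter of 1, which leaves Rarb and Rora untested, and 2 with limma on log2(FPKM + 1). Against P-Rspo3 they were 2 and 2 under the same settings, and 7 by adjusted p alone. Leaving out each library gave 3 to 5 higher and 16 to 17 lower in Apc against WT, 0 and 0 in P-Rspo3 against WT, and 3 to 6 higher and 15 to 16 lower in Apc against P-Rspo3. Rarg was the only call lost in these fits, and Pparg, Thra, Esr1 or Pgr were gained in some. With a replicate block for the line, Apc against WT gave 3 higher and 16 lower, and Rarg was the 1 call lost. Over all genes, P-Rspo3 against WT gave 1 higher and 0 lower, but 55 and 173 with DESeq2's Wald test, 11 and 63 in 1 fit of all groups, 2 and 4 with the newer quasi-likelihood form, 2 and 11 without a filter, and 166 and 100 without WT naive. With limma on log2(FPKM + 0.1), 59.9% of calls in Apc against WT were higher, against 46.4%, and 61.2% against 50.3% in Apc against P-Rspo3. With the type of line as a term, only WT naive shares the line type of P-Rspo3, so this fit rests on 1 WT library and its p-values cannot decide. The 6 receptors with an unadjusted p under 0.05 in the main edgeR fit then had smaller or similar log2 fold changes. These were 0.24 for Thrb, 0.22 for Nr1h4, -0.09 for Rxra, -0.35 for Vdr, -0.16 for Ppard and -0.07 for Nr2e3. Depth limits Rarb, Rora, Nr0b2, Pgr and Esr1, whose low group held few counts.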

Other observations

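The 2 ungrouped libraries are given here as values only. Title and genotype label disagree for NAIVE_F, and the title LIPO names no genotype. The library titled LIPO, labelled dox-naive WT, lay above all grouped libraries for 5 of 41 receptors by CPM, Ppara, Nr1i2, Nr1i3, Nr3c2 and Esrrb, and below all for Nr4a1, and had 0 counts of Rspo3. Its FPKM was 25.4 for Ppara, 72.0 for Nr1i3 and 78.3 for Vdr. It lay within the WT range for 32 receptors and within the Apc range for 9. The library titled NAIVE_F, labelled P-Rspo3, lay below all grouped libraries for Nr2f6, within the WT range for 29 receptors and within the P-Rspo3 range for 21, and had 729 counts of Rspo3. Its FPKM was 83.3 for Vdr and 42.2 for Nr1i3.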
